A study of Mus musculus with 12 samples.

Results

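The 7 long noncoding RNAs described here, Malat1, Neat1, H19, Meg3, Rian, Mirg and Gas5, were chosen by gene symbol from the 51826 entries of a table of gene counts, and each was found as 1 entry. They were measured in atria and ventricles of CUG960 mice, a model of the heart in myotonic dystrophy type 1, and of controls. CUG960 +dox mice were homozygous for TREDT960I, a transgene with 960 interrupted CTG repeats within human DMPK sequence, and hemizygous for MHCrtTA, which expresses the dox-dependent transactivator from the cardiomyocyte promoter of Myh6. MHCrtTA +dox controls were hemizygous for the transactivator and lacked the repeat transgene. Both groups received dox in the chow from postnatal day 1, so dox and transactivator were shared. All 6 mice were labelled female, FvB and 10 weeks old. Mice V327, V333 and V334 served as controls, V119, V120 and V123 carried the repeats, and 1 atrial and 1 ventricular library of each mouse gave 4 groups of 3. The genotypes came from different matings, because controls had a wild-type FVB parent and CUG960 mice did not, and the counts do not tell maternal from paternal alleles. Libraries held between 116127966 and 160676189 counts, and levels are given as normalized CPM (counts scaled to a common library size), mean ± SD of 3 mice where averaged. The chamber labels matched their markers. The atrial myosin light chain Myl7 had a mean of 2842 CPM in control atria and 10.8 CPM in control ventricles, and its ventricular counterpart Myl2 had 18.0 CPM in the former and 9407 CPM in the latter.

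Long noncoding RNAs act as transcripts and not through a protein. Malat1 and Neat1 stay in the nucleus, where Malat1 gathers in nuclear speckles, sites rich in splicing factors, and Neat1 is the scaffold of paraspeckles, bodies built with proteins such as SFPQ and NONO. H19, Meg3, Rian and Mirg are imprinted and are transcribed from the maternal chromosome. H19 shares enhancers with Igf2, a growth factor gene read from the paternal chromosome, and Meg3, Rian and Mirg follow one another in the Dlk1-Dio3 domain. These imprinted RNAs are hosts of microRNAs, and Rian and Gas5 are hosts of small nucleolar RNAs (snoRNAs). Imprinted noncoding RNAs are abundant in the embryo and decline in most tissues after birth. Malat1 and the long form of Neat1 end in a triple helix and not in a poly(A) tail, so poly(A)-selected libraries capture them in part.

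By GENCODE M21 on GRCm38, Malat1 lay at chr19:5795690-5802672 and Neat1 at chr19:5824708-5845478, both on the minus strand with 22.0 kb between them. H19 lay on the minus strand at chr7:142575529-142578143, with Igf2 72.6 kb away on the same strand. Meg3 at chr12:109541001-109571726, Rian at chr12:109603940-109661716 and Mirg at chr12:109729764-109749460 were on the plus strand. Gas5 lay on the plus strand at chr1:161034422-161038539. Gene models of microRNAs and snoRNAs inside the hosts had 0 counts in every library within Meg3, Rian, Mirg and H19 and at most 1 count within Gas5. The values below are those of the host models, and the counts of the small RNA models do not measure the small RNAs.

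RefSeq (GRCm38.p6) placed 2 mature microRNAs within H19, 3 within Meg3, 6 within Rian and 26 within Mirg, in all 37 sequences with 36 different seeds. The microRNAs of H19, the member that passed the test between genotypes, lie in an exon of their host at chr7:142577112-142577133 and chr7:142577078-142577099 on the minus strand. They are shown 5′ to 3′ with the seed (bases 2 to 8) in capitals.
miR-675-5p: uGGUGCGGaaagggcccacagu
miR-675-3p: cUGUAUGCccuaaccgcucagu
Mirg, the host with the most microRNAs, held the 1 pair of these sequences with a shared seed. Both lie outside the exons of Mirg, at chr12:109735669-109735692 and chr12:109739132-109739152 on the plus strand.
miR-453: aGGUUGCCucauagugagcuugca
miR-496a-5p: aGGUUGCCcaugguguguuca
Mature microRNAs were not measured in these libraries.

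RefSeq promoters, 250 bases before to 50 after a start, were at hand for 5 of the 7 RNAs, 7 promoters in all. Among Malat1, Meg3, Rian, Mirg and Gas5, Meg3 and Gas5 were the 2 with a promoter that held the cAMP response element octamer TGACGTCA, as 1.79% of 32851 promoters of that length did (either strand). In Meg3 it began 57 bases before the start, and the TATA box TATAAA, found in 13.6% of promoters, began 29 bases before it on the opposite strand and 25 bases before it on the strand of the gene, the matches overlapping each other. The octamer and the TATA box matches are in capitals. The first of 2 Meg3 promoters is chr12:109540746-109541045 on the plus strand, and the second held neither motif.
Meg3: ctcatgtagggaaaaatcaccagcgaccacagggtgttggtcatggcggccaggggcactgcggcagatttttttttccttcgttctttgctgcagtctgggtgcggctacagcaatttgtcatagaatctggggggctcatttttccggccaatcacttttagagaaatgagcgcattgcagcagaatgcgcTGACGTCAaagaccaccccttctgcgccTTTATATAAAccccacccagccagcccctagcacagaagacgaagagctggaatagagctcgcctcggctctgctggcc
The second of 2 Gas5 promoters is chr1:161034916-161035215 on the plus strand, and its octamer begins 46 bases before the start.
Gas5: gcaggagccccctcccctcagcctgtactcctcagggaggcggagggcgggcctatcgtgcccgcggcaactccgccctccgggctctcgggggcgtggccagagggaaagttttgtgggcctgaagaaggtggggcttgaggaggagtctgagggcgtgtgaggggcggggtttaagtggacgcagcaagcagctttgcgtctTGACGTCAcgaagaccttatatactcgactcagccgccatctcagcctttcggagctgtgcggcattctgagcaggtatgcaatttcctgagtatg
A match of letters is a description of these sequences, and binding was not measured.

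Levels per length differed widely among the 7 RNAs. Length was that of all annotated exons of a gene (20.771 kb for Neat1), and the order given here holds for these lengths only. Averaged over the 12 libraries, H19 had 23.3 CPM per kb of exon, Malat1 16.4, Gas5 8.36 and Neat1 6.79 CPM per kb. The RNAs of the Dlk1-Dio3 domain were far below these, with a level of 0.258 CPM per kb for Rian, 0.178 for Meg3 and 0.0151 for Mirg. The order depended on the chamber. In control atria, H19 led with 55.0 ± 13.9 CPM per kb (SD, n = 3), followed by Malat1 with 21.9 ± 7.47. In control ventricles, Malat1 led with 16.3 ± 2.02 CPM per kb, and H19 (7.31 ± 1.69), Neat1 (7.11 ± 1.14) and Gas5 (6.32 ± 0.551) lay within their spread of one another. Rian and Meg3 lay within their spread in control atria (0.371 ± 0.0544 and 0.322 ± 0.0484 CPM per kb), and Meg3 (0.0923 ± 0.00320) was below Rian (0.186 ± 0.0542) in control ventricles. Malat1 took between 0.00718% and 0.0221% of all counts in a library. The 17 genes of a list of RNAs without a poly(A) tail, which the selection should remove, summed to between 15.8 and 35.6 CPM per library with overlap among the 4 groups. Rn7s2, which encodes the RNA of the signal recognition particle, was the most abundant of them by the mean of the 12 libraries.

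**Figure D1:**
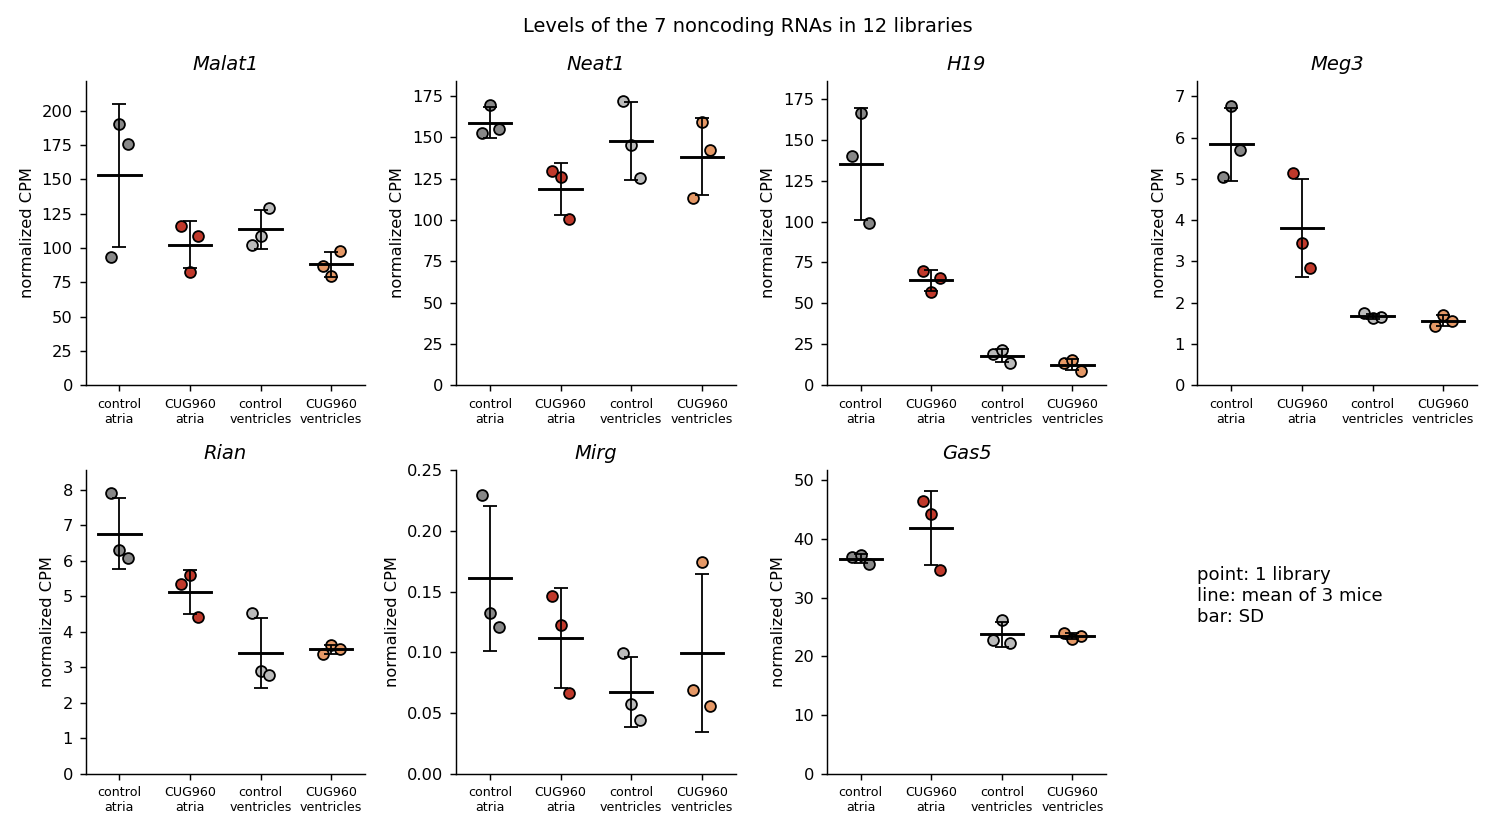
Normalized CPM of each RNA (linear axis from 0, a scale of its own per panel) in the 4 groups, with 1 point per library, the mean of 3 mice as a line and the SD as a bar. The 3 CUG960 atria lie below the 3 control atria for H19, Neat1 and Rian, and all 6 atria lie above all 6 ventricles for H19, Meg3 and Gas5.

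The first comparison asked which of these RNAs differed by genotype in each chamber. H19 gave the clearest difference. In atria, its level was 140, 167 and 98.9 CPM in controls V327, V333 and V334 and 69.8, 56.7 and 65.2 CPM in CUG960 +dox mice V119, V120 and V123. The groups did not overlap, and each CUG960 value was under the lowest control. H19 fell 2.12-fold (log2 fold change −1.08, SE 0.173, adjusted P value = 0.0062, edgeR's quasi-likelihood test). Fewer cells that express an RNA and less of it per cell cannot be told apart in such bulk tissue. In ventricles, H19 had 18.9, 21.6 and 13.4 CPM in controls and 13.6, 15.1 and 8.70 CPM in CUG960 +dox mice. Here the groups overlapped, and the log2 difference of −0.53 (SE 0.217) did not pass the threshold (adjusted P value = 0.16). Over 14 alternatives (edgeR or DESeq2), its adjusted P value ran from 0.041 to 0.37, and H19 did not pass under any of them. The ventricular difference minus the atrial one was 0.55 on the log2 scale (SE 0.315, adjusted P value = 0.53), so the genotype difference of H19 was not shown to differ between chambers.

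In atria, H19 was the 1 member of 7 past the threshold, an adjusted P value under 0.05 with a fold change of at least 1.5. Of the 17650 genes tested there, 5.49% passed in either direction and 2.12% with a lower level in CUG960 +dox mice. Neat1 passed on the adjusted P value alone, as 6.62% of genes did in that direction with or without the fold change. The CUG960 atria lay below all control atria for H19, Neat1 and Rian, and did so for 17.2% of genes. An unadjusted P value under 0.05 was reached by 5 of the 7 in atria (H19, Neat1, Rian, Meg3 and Malat1), and by 30.2% of genes. The 7 atrial log2 fold changes had a median of −0.51, against −0.0088 over all genes tested, and Gas5 was the member with a positive value. In ventricles, 0 of 6 members tested passed the threshold by edgeR or by DESeq2, where 4.75% of 16909 genes passed by edgeR in either direction and 1.76% with a lower level. H19 and Malat1, 2 of the 6, had an unadjusted P value under 0.05 there, as 25.7% of genes did. Malat1 was the member whose ventricular groups did not overlap, and 15.0% of genes had all CUG960 ventricles below all control ventricles. The 6 ventricular log2 fold changes had a median of −0.095, against −0.0095 over all genes. With 3 mice a group, the smallest two-sided P value of an exact permutation test is 0.1, and the adjusted P values depend on edgeR's pooling of the spread over genes.

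Igf2, the growth factor gene next to H19, passed the threshold in ventricles and not in atria. It had 178, 217 and 144 CPM in control atria and 142, 126 and 113 CPM in CUG960 atria. These groups did not overlap, and the log2 difference of −0.50 (SE 0.146, adjusted P value = 0.055) missed the threshold. In ventricles, it had 47.2, 46.2 and 41.8 CPM in controls and 31.3, 34.3 and 22.9 CPM in CUG960 +dox mice. Igf2 fell 1.53-fold in ventricles (log2 fold change −0.61, SE 0.135, adjusted P value = 0.023), with no overlap. The ventricular call was lost without V327 (adjusted P value = 0.081), without V333 (adjusted P value = 0.06) and without V123, where the log2 fold change of −0.46 was under the fold limit.

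Per kb of exon, the ratio of Igf2 to H19 was 0.546, 0.559 and 0.625 in control atria and 0.873, 0.956 and 0.743 in CUG960 atria. The 3 CUG960 ratios lay above the 3 control ratios in atria. In ventricles the ratios were 1.08, 0.919 and 1.34 in controls and 0.992, 0.975 and 1.13 in CUG960 +dox mice, and they overlapped. H19 thus had the higher level per length in every atrium, and the RNAs were near a ratio of 1 in ventricles. Of the 9 genes on a list of the H19-Igf2 domain and IGF2 pathway, 7 were tested in atria, where 0 passed the threshold by edgeR or DESeq2, and 5 in ventricles, where Igf2 passed. An unadjusted P value under 0.05 was reached by 3 of the 7 in atria and 2 of the 5 in ventricles, against 30.2% and 25.7% of all genes. Igf2r, the receptor that clears IGF2, had 175, 173 and 207 CPM in control ventricles and 275, 293 and 259 CPM in CUG960 ventricles. That difference was 1.49-fold (log2 fold change 0.58, SE 0.0911, adjusted P value = 0.0054), just under the fold limit and opposite in sign to that of Igf2, and Igf2r was named here after its values were seen.

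**Figure D2:**
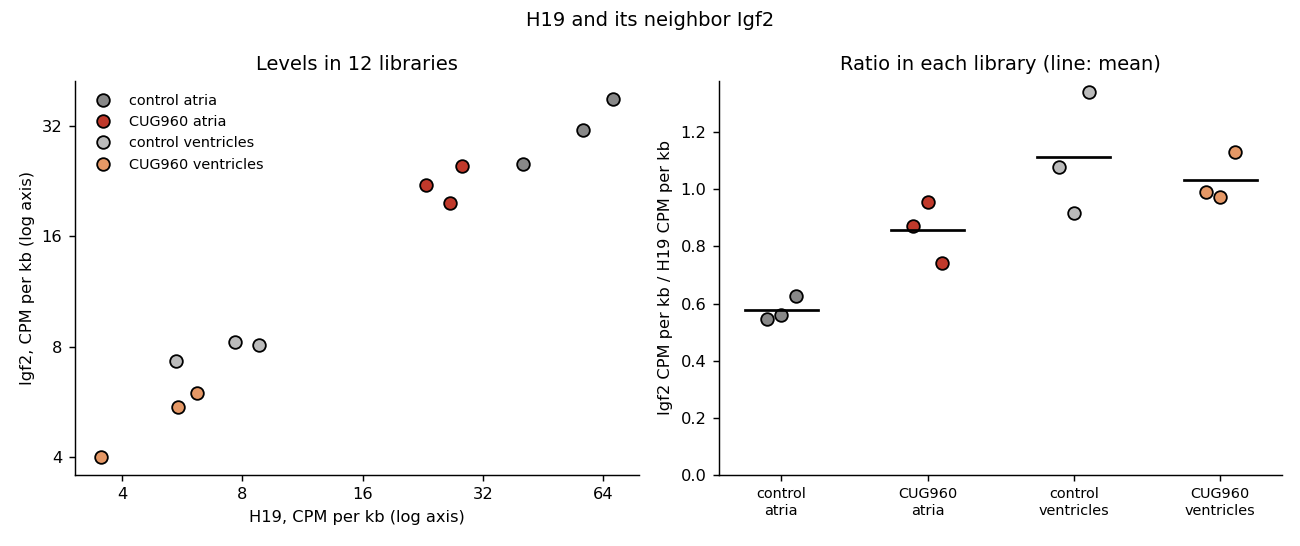
Left, Igf2 against H19 in CPM per kb of exon (both axes log) in the 12 libraries; right, the ratio of Igf2 to H19 per kb in each library, with the mean of each group as a line. Control atria lie at the top right of the left panel and have ratios between 0.546 and 0.625, under those of all other libraries.

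The genotype differences of the nuclear RNAs did not pass the threshold. Malat1 had 93.5, 190 and 176 CPM in atria of controls V327, V333 and V334, and 116, 82.8 and 109 CPM in those of V119, V120 and V123. V327 lay among the CUG960 atria, so the groups overlapped, and the log2 difference was −0.58 (SE 0.247, adjusted P value = 0.16). Without V327 it was −0.84 with an adjusted P value of 0.014, past the threshold. In ventricles, Malat1 had 102, 109 and 129 CPM in controls and 87.1, 79.4 and 97.8 CPM in CUG960 +dox mice. The ventricular groups did not overlap, with a log2 difference of −0.36 (SE 0.109, adjusted P value = 0.066). Over 14 alternatives (edgeR or DESeq2), its adjusted P value went as low as 0.017. The log2 difference stayed between −0.45 and −0.26, under the fold limit, so Malat1 was not called.

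Neat1 had 152, 170 and 155 CPM in control atria and 130, 126 and 101 CPM in CUG960 atria. All CUG960 atria were lower, and the log2 difference of −0.42 (SE 0.101, adjusted P value = 0.029) was under the fold limit at 1.34-fold. In ventricles, Neat1 had 172, 146 and 125 CPM in controls and 113, 159 and 143 CPM in CUG960 +dox mice. Those groups overlapped (log2 difference −0.093, SE 0.143, adjusted P value = 0.73), and the sign of the difference turned without V327 or without V119.

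Among the proteins of these nuclear bodies, 0 of 14 paraspeckle genes and 0 of 17 speckle genes passed the threshold between genotypes in either chamber, by edgeR or by DESeq2. An unadjusted P value under 0.05 was reached by 5 paraspeckle and 3 speckle genes in atria, where 30.2% of all genes reached it, and by 2 of each in ventricles, where 25.7% did (edgeR). In atria, the paraspeckle genes Taf15 (log2 difference 0.49, adjusted P value = 0.0024) and Dazap1 (−0.31, adjusted P value = 0.025) passed on the adjusted P value alone, and both encode RNA-binding proteins; these were picked out after their values were seen. Hnrnpk, the most abundant paraspeckle gene, had 217 ± 1.36 CPM in control atria and 221 ± 1.89 in CUG960 atria. Srrm2, a splicing coactivator and the most abundant speckle gene in atria, had 206 to 232 CPM in control atria and 185 to 209 CPM in CUG960 atria. The medians of the atrial log2 differences were −0.046 for paraspeckle and −0.058 for speckle genes. Of 8 protein-coding neighbors of Malat1 and Neat1, 0 passed the threshold between genotypes in either chamber by edgeR or DESeq2, with medians of −0.0041 in atria and −0.056 in ventricles. On the adjusted P value alone, 2 of them passed in atria, Ltbp3 (log2 difference −0.45, adjusted P value = 0.0066) and Ehbp1l1 (−0.37, adjusted P value = 0.01), also named after their values were seen.

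The RNAs of the Dlk1-Dio3 domain were low in abundance, and their genotype differences did not pass the threshold. Meg3, the first RNA of the row, had 5.03, 6.77 and 5.70 CPM in control atria and 5.14, 3.45 and 2.83 CPM in CUG960 atria. V119 was within the control range, so the groups overlapped, and the log2 difference was −0.62 (SE 0.218, adjusted P value = 0.099). It passed the threshold by DESeq2 (−0.62, adjusted P value = 0.019), with all 12 libraries in 1 fit (adjusted P value = 0.048), with no filter on low counts (adjusted P value = 0.045) and without V119 (−0.89, adjusted P value = 0.027). In ventricles, Meg3 had 1.74, 1.62 and 1.65 CPM in controls and 1.43, 1.70 and 1.56 CPM in CUG960 +dox mice, which overlapped (log2 difference −0.097, adjusted P value = 0.75).

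Rian, the snoRNA and microRNA host after Meg3, had 7.90, 6.31 and 6.07 CPM in control atria and 5.35, 5.59 and 4.42 CPM in CUG960 atria. The groups did not overlap, and the log2 difference was −0.40 (SE 0.137, adjusted P value = 0.09). Over 14 alternatives (edgeR or DESeq2), its adjusted P value ran from 0.03 to 0.2. The atrial log2 difference stayed between −0.47 and −0.28, under the fold limit, so Rian was not called. In ventricles, Rian had 4.54, 2.89 and 2.77 CPM in controls and 3.37, 3.62 and 3.52 CPM in CUG960 +dox mice. V327 was the highest and the other controls were the lowest of these, with a log2 difference of 0.045 (adjusted P value = 0.91) that turned sign without V333 or without V334.

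Mirg, the microRNA host at the end of the row, had 35, 23 and 19 counts in control atria and 21, 19 and 9 counts in CUG960 atria. These are 0.229, 0.132 and 0.121 CPM against 0.147, 0.122 and 0.0662 CPM, which overlapped (log2 difference −0.51, SE 0.419, adjusted P value = 0.45). In ventricles it had 11, 6 and 5 counts in controls and 10, 24 and 7 counts in CUG960 +dox mice, too few to be tested between genotypes. The protein-coding genes of the domain were low as well. Begain, which neighbors the domain, led 4 genes of a list of 5 that were in the table with 0.288 ± 0.0307 CPM in control atria, and Dlk1, an inhibitor of adipocyte differentiation, had between 4 and 23 counts in each of those libraries. Of these genes, 0 of the 2 tested in atria and 0 of the 1 tested in ventricles passed the threshold by edgeR or DESeq2, and 0 had an unadjusted P value under 0.05.

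Gas5, a snoRNA host known to accumulate in cells that stop growing, had 36.9, 37.2 and 35.8 CPM in control atria and 46.5, 44.3 and 34.7 CPM in CUG960 atria. V119 and V120 were above all controls and V123 was below them, with a log2 difference of 0.19 (SE 0.104, adjusted P value = 0.25). In ventricles, Gas5 had 22.9, 26.1 and 22.3 CPM in controls and 24.0, 22.9 and 23.5 CPM in CUG960 +dox mice. The log2 difference was −0.016 (SE 0.0887, adjusted P value = 0.94) and turned sign without V333 or without V120. Zbtb37 overlaps Gas5 on the opposite strand and had between 1022 and 3634 counts per library. The library kit marked strand, and whether the counting used it is not given in the sources used here, so reads of the 2 genes may not be told apart.

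Of 19 other noncoding snoRNA host genes, 14 were tested in each chamber, and 1 rose in atria and 0 passed in ventricles, by edgeR and by DESeq2. An unadjusted P value under 0.05 was reached by 4 in atria and 1 in ventricles, against 30.2% and 25.7% of all genes. Snhg18 had 10.7, 10.3 and 10.7 CPM in control atria and 21.0, 20.7 and 18.6 CPM in CUG960 atria. It rose 1.9-fold (log2 fold change 0.93, SE 0.073, adjusted P value = 0.00028), with no overlap, whereas its ventricular difference was 0.22 (adjusted P value = 0.31). The medians of the log2 differences of these hosts were 0.20 in atria and 0.12 in ventricles, and Snhg7 was at 0 in every library. Among 40 other imprinted genes, 1 of 35 tested in atria and 1 of 32 in ventricles rose and 0 fell by edgeR, where 5.49% and 4.75% of all genes passed, and by DESeq2 Mest fell in ventricles as well. Sgce, which encodes epsilon-sarcoglycan, had 31.1, 32.3 and 31.1 CPM in control atria and 49.7, 51.4 and 47.5 CPM in CUG960 atria, a 1.57-fold rise (log2 fold change 0.65, SE 0.0566, adjusted P value = 0.00044). Ndn, which encodes the growth suppressor necdin, rose 1.65-fold in ventricles (log2 fold change 0.73, SE 0.175, adjusted P value = 0.031). The call of Ndn was lost without V327, V333, V334, V120 or V123 (adjusted P value between 0.057 and 0.094). The list had medians of −0.084 in atria and −0.053 in ventricles.

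Among 25 other long noncoding RNAs, 21 were in the table, and Hotair was at 0 in every library. In atria, 0 of 18 tested passed the threshold, where 5.49% of all genes did. In ventricles Pvt1, a noncoding neighbor of Myc, was the 1 of 17 that did, where 4.75% of all genes passed. An unadjusted P value under 0.05 was reached by 5 of the 18 and 6 of the 17, against 30.2% and 25.7% of all genes (edgeR). Pvt1 had 1.27, 0.893 and 1.12 CPM in control ventricles and 2.68, 2.45 and 2.85 CPM in CUG960 ventricles. It rose 2.44-fold (log2 fold change 1.29, SE 0.178, adjusted P value = 0.0028), with no overlap. Of the RNAs without a poly(A) tail, 6 were tested, and the histone gene Hist1h4i fell in ventricles (log2 fold change −0.87, adjusted P value = 0.0031), whereas 0 passed in atria.

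**Figure D3:**
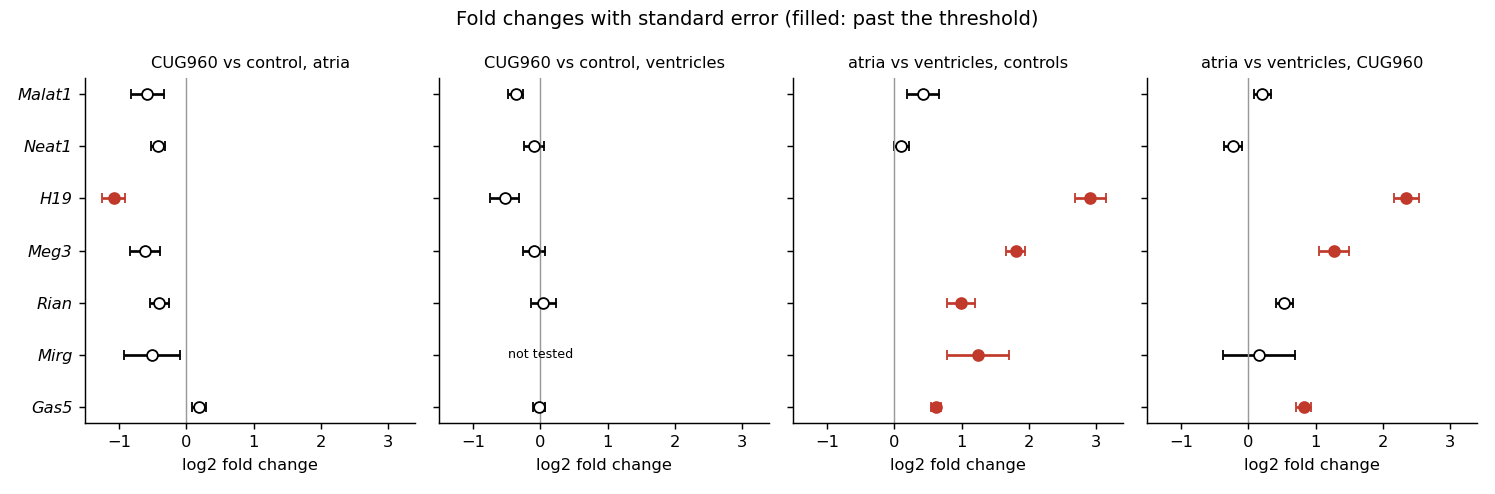
Log2 fold change (point) and its standard error (bar) of each RNA for the genotype comparison in atria and in ventricles and for the chamber comparison in controls and in CUG960 +dox mice, with filled points for those past the threshold. H19 is the 1 filled point of the genotype panels, and 5 points are filled in controls and 3 in CUG960 +dox mice in the chamber panels.

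The second comparison set atria against ventricles of the same mice within each genotype. In controls, 5 of 7 members were higher in atria past the threshold, H19, Meg3, Mirg, Rian and Gas5, and 0 were lower. Of 17451 genes, 34.9% passed there in either direction, 18.3% with the higher level in atria, and for 33.7% all atria lay above all ventricles, as was so for these same 5 members. In CUG960 +dox mice, H19, Meg3 and Gas5 passed, and Rian passed on the adjusted P value alone, and these 4 had no overlap. The shares of 17559 genes there were 33.6% in either direction, 17.2% with the higher level in atria, 26.7% higher on the adjusted P value alone and 32.0% with all atria above all ventricles. The median log2 fold change of the 7 was 0.99 in controls and 0.53 in CUG960 +dox mice, against 0.033 and 0.0090 over all genes.

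H19 was 7.5-fold higher in control atria than in control ventricles (log2 fold change 2.91, SE 0.228, adjusted P value = 1.6e-05). Its ratio within a mouse was 7.44, 7.71 and 7.36 in V327, V333 and V334, and thus nearly the same in mice whose atrial levels ran from 98.9 to 167 CPM. In CUG960 +dox mice the ratio was 5.15, 3.75 and 7.50 in V119, V120 and V123, with a fold change of 5.08 (log2 fold change 2.35, SE 0.185, adjusted P value = 8.3e-06). V123 had a ratio in the control range, and V119 and V120 were below it.

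Meg3 was 3.48-fold higher in atria of controls (log2 fold change 1.80, SE 0.142, adjusted P value = 1.6e-05) and 2.42-fold higher in atria of CUG960 +dox mice (1.27, SE 0.219, adjusted P value = 0.001). The ratios within a mouse were 2.90, 4.17 and 3.45 in controls and 3.60, 2.03 and 1.82 in CUG960 +dox mice, and they overlapped. Rian was 1.98-fold higher in control atria (log2 fold change 0.99, SE 0.204, adjusted P value = 0.0035), with ratios of 1.74, 2.18 and 2.19. In CUG960 +dox mice its difference was 1.45-fold (0.53, SE 0.125, adjusted P value = 0.0055), under the fold limit, with ratios of 1.59, 1.54 and 1.26 that lay below those of all controls. Without V123 it was 0.64 on the log2 scale (adjusted P value = 0.0086), past the threshold.

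Mirg had ratios of 2.31, 2.32 and 2.71 in controls (log2 fold change 1.24, SE 0.465, adjusted P value = 0.048). This call was lost with any 1 control left out (adjusted P value between 0.079 and 0.15), by DESeq2 (adjusted P value = 0.12), with no filter on low counts and with all 12 libraries in 1 fit, and Mirg was not tested where each library had to reach 10 counts. In CUG960 +dox mice, the ratios were 2.14, 0.703 and 1.18 (log2 difference 0.15, SE 0.533, adjusted P value = 0.83), on 7 to 24 counts per library, and the sign turned without V119. Gas5 was 1.54-fold higher in control atria (log2 fold change 0.62, SE 0.0782, adjusted P value = 0.00023) and 1.77-fold higher in CUG960 atria (0.82, SE 0.107, adjusted P value = 0.00019), with atria above ventricles in 6 of 6 mice.

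The nuclear RNAs did not pass the threshold between chambers. The atrial to ventricular ratios of Malat1 were 0.914, 1.75 and 1.36 in controls (log2 difference 0.43, SE 0.235, adjusted P value = 0.15) and 1.33, 1.04 and 1.11 in CUG960 +dox mice (0.20, SE 0.128, adjusted P value = 0.21). Without V327, the control difference was 0.61 (adjusted P value = 0.009), past the threshold. Those of Neat1 were 0.885, 1.17 and 1.24 in controls (log2 difference 0.10, SE 0.112, adjusted P value = 0.47) and 1.15, 0.792 and 0.707 in CUG960 +dox mice (−0.23, SE 0.135, adjusted P value = 0.18). Neat1 therefore lay on both sides of 1 in each genotype. Of the paraspeckle and speckle genes, 0 of 14 and 0 of 17 passed the threshold between chambers in either genotype. On the adjusted P value alone, 7 speckle genes were higher and 0 lower in control atria, with 9 and 0 in CUG960 atria, where 28.3% and 26.7% of all genes were higher. The paraspeckle genes had 3 higher and 3 lower in controls and 3 and 4 in CUG960 +dox mice.

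**Figure D4:**
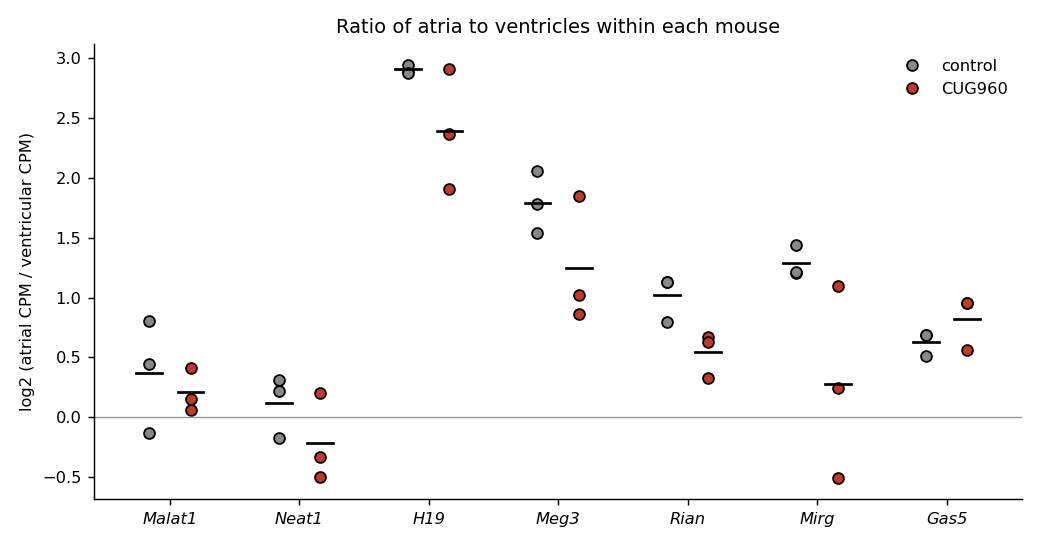
Log2 ratio of the atrial to the ventricular CPM of the same mouse for each RNA, with 1 point per mouse, the mean of 3 mice as a line and 0 for equal levels. H19 in controls lies at 2.88 to 2.95, and the 3 CUG960 ratios of Rian lie below the 3 control ratios.

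The change between chambers in genotype differences was tested for all 7 RNAs over the 12 libraries. An adjusted P value under 0.05 was reached by 0 by edgeR or by DESeq2, and by 1.38% of 18327 genes by edgeR. An unadjusted P value under 0.05 by edgeR was reached by 0 of the 7, against 12.3% of all genes. The adjusted P values of the members lay between 0.49 for Meg3 and 0.84 for Malat1. Meg3 had a ventricular minus atrial difference of 0.52 (SE 0.273) on the log2 scale, Rian 0.44 (SE 0.251) and Neat1 0.32 (SE 0.196). Mirg had 1.08 (SE 0.75) and Malat1 0.22 (SE 0.3), and Gas5, with −0.21 (SE 0.138), was the member with a negative value. The lower ratios of Rian in CUG960 +dox mice were thus not shown to be a difference between genotypes.

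Of 40 other imprinted genes, 35 were tested between chambers in each genotype. In controls, 13 were higher and 5 lower in atria past the threshold, where 34.9% of all genes passed and 18.3% were higher. In CUG960 +dox mice, 10 were higher and 2 lower, where 33.6% of all genes passed and 17.2% were higher, and the medians were 0.35 and 0.21. Those with the smallest P values in controls were Plagl1, a transcription factor of the imprinted gene network, Sgce and Peg3, a zinc finger protein. Plagl1 had 52.7 ± 11.7 CPM in control atria and 4.76 ± 0.584 CPM in control ventricles (11-fold), and Peg3 had 61.5 ± 7.57 and 10.2 ± 2.48 CPM (5.99-fold). Sgce was 2.07-fold higher. In CUG960 +dox mice, the atrial excess was 7.33-fold for Plagl1, 5.95-fold for Peg3 and 2.95-fold for Sgce. Of the H19-Igf2 list, 5 of 7 tested were higher in atria in each genotype, among them Igf2 with 3.97-fold in controls and 4.26-fold in CUG960 +dox mice. Igf2bp2, which binds Igf2 transcripts, was 1.8-fold higher in control atria (adjusted P value = 9e-05). Igf2bp1, a related protein known from the embryo, had 0.293 ± 0.0692 CPM in control atria and at most 1 count in any ventricle.

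Of 18 other long noncoding RNAs tested, 5 were higher and 2 lower in control atria, near the 34.9% of all genes that passed. In CUG960 +dox mice, 2 of the 18 were higher and 4 lower in atria, where 33.6% of all genes passed. Xist, which coats the inactive X chromosome, had 161 ± 28.0 CPM in control atria and 67.8 ± 13.4 CPM in control ventricles (2.37-fold), Mir22hg was 1.6-fold higher and 1700020I14Rik 1.55-fold lower, the latter under the fold limit without V334 (log2 difference −0.52). Of the snoRNA hosts, Snhg18 (1.82-fold) and Snhg17 (1.68-fold) were higher in control atria, and the call of Snhg17 was lost without V333 (adjusted P value = 0.097). Ltbp3, which encodes a binding protein of latent TGF-β, was the 1 of 8 neighbors of Malat1 and Neat1 past the threshold in controls, with 90.3 ± 2.91 CPM in atria and 43.4 ± 3.41 CPM in ventricles.

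Marker genes of other cell types also differed, not all in the direction of these RNAs, and their part in the differences was not tested. Of 10 fibroblast markers, 8 were higher in control atria and 0 lower, with a median log2 fold change of 0.91. Between chambers of CUG960 +dox mice, 5 were higher in atria and 0 lower, with a median of 0.545. The sum of the 10 was 7350, 8612 and 8673 CPM in control atria and 3122, 3119 and 3450 CPM in control ventricles. Gsn, the most abundant of them, had 5500 ± 534 CPM in control atria. In CUG960 atria, 10 of 10 fibroblast markers had a lower level than in control atria, with a median log2 difference of −0.33, beside the lower values of H19, Meg3 and Rian there. Of these, 8 had an unadjusted P value under 0.05, against 30.2% of all genes, 4 passed on the adjusted P value alone, against 6.62% of genes in that direction, and Postn fell past the threshold (log2 fold change −0.73, adjusted P value = 0.0026). The sum, most of it Gsn, was 7001, 7770 and 6453 CPM and overlapped the control atria. In CUG960 ventricles the fibroblast sum was 3058, 3467 and 3195 CPM, and 0 of the 10 passed between genotypes. Epicardial markers were higher in atria for 6 of 6 genes in each genotype and summed to between 258 and 279 CPM in control atria and between 7.05 and 7.99 CPM in control ventricles, with Upk3b the most abundant in atria and Wt1 in ventricles, and 0 of 6 passed between genotypes in either chamber by edgeR (Wt1 fell in ventricles by DESeq2). Of 8 leukocyte markers, led by Lyz2, 7 were higher in atria in each genotype and 0 passed between genotypes by edgeR (Ptprc fell in ventricles by DESeq2). Of all genes, 18.3% were higher in atria past the threshold in controls and 17.2% in CUG960 +dox mice. Among 7 smooth muscle and pericyte markers, 1 was higher and 5 lower in control atria, with 2 and 4 in CUG960 atria. Their median log2 differences were −0.81 and −0.82. Endothelial markers were split, with 2 higher and 2 lower in control atria and 2 and 3 in CUG960 atria.

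Of 8 endothelial markers, 2 fell in atria of CUG960 +dox mice and 0 passed in ventricles. A lower level passed for 2.12% and 1.76% of all genes. An unadjusted P value under 0.05 was reached by 5 in atria and 6 in ventricles, against 30.2% and 25.7% of all genes (edgeR). On the adjusted P value alone, 4 fell in atria and 3 in ventricles. In either chamber, 0 of the 8 were higher, with a median log2 difference of −0.35. The sum of the 8 was 983, 1058 and 845 CPM in control atria and 688, 816 and 730 CPM in CUG960 atria, and thus did not overlap. They did not overlap in ventricles either, where the sums were 967, 818 and 902 CPM in controls and 679, 665 and 707 CPM in CUG960 ventricles. Pecam1, the most abundant of them by the mean of the 12 libraries, had a log2 fold change of −0.71 in atria (adjusted P value = 0.0043). Of 6 adipocyte markers, 0 passed between genotypes in atria and 3 fell in ventricles (4 by DESeq2), where 1.76% of all genes fell. In either chamber, 0 of the 6 were higher, with median log2 differences of −1.06 in atria and −1.73 in ventricles. An unadjusted P value under 0.05 by edgeR was reached by 0 in atria and 6 in ventricles. Of the 6 atrial cardiomyocyte markers, 6 were higher in atria in each genotype, and 1 rose and 1 fell between genotypes in ventricles, with Nppa the most abundant. Of 4 ventricular cardiomyocyte markers, 4 were lower in atria. Between genotypes in atria, 1 of 3 ventricular cardiomyocyte markers tested fell, 0 of 6 general cardiomyocyte markers passed, and 1 of 7 smooth muscle and pericyte markers rose. In ventricles these lists had 0 of 4, 1 lower of 6 and 2 lower of 7. Of the lists of Schwann cells with neurons and of skeletal muscle, 0 of 6 and 2 lower of 4 tested passed in atria, and 1 lower of 5 and 1 higher of 4 in ventricles.

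The genes most like each RNA over the 12 libraries were ranked by Pearson's r of log2 CPM among 13106 genes. Igf2 was the first for H19 (r = 0.987), followed by P2rx6 and Fam189b. For Meg3 they were Lrrc45 (r = 0.981), Supt20 and the fibroblast marker Dpt, and for Rian they were Gm42688 (r = 0.965), Ptgis and Ephx1. Gas5 was closest to Tceal9 (r = 0.987), Pmvk and Stx5a, and Mirg to 1700037C18Rik (r = 0.936), Atf5 and Pgap3. Malat1 was closest to the collagen gene Col27a1 (r = 0.919), the fibroblast marker Lum and Pard6g, and Neat1 to the splicing factor gene Sf3a2 (r = 0.928), Ccnl2 and Arhgdia. The libraries fall into 4 groups and come in pairs of the same mouse, so these values hold differences between groups as well as within them. With the mean of each group subtracted, the first genes were Ctu1 for H19 (r = 0.949), Psme2b for Meg3 (r = 0.936), Nr1d1 for Rian (r = 0.963), Dpp3 for Mirg (r = 0.965), Prss12 for Gas5 (r = 0.957), Adat1 for Malat1 (r = 0.941) and Arhgdia for Neat1 (r = 0.97). Arhgdia was thus among the first 3 for Neat1 on both scales, and for the other 6 RNAs the sets had no gene in common. On either scale these genes were picked as the highest of 13106 candidates, and how high r would run by chance was not tested. Between members, the same measure was 0.955 for Meg3 and H19 and 0.281 for Malat1 and Neat1, and with group means subtracted it was 0.219 and −0.106. On the latter scale the pairs of members ran from −0.596 for Malat1 and Rian to 0.724 for Rian and Mirg.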

How the data were processed

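Poly(A)-selected stranded RNA-seq of 12 mouse heart libraries was aligned and quantified by the authors with RSEM 1.3.1 on GRCm38 and its Ensembl annotation, and the deposited values are expected counts per gene, not normalized. Replicates were not pooled. Values were rounded to whole numbers before use, and 0 columns were left unmapped. edgeR 4.0.16 (R 4.3.3) was fitted to all genes that passed its filter on low counts, with TMM factors, the quasi-likelihood test and Benjamini-Hochberg adjustment over all genes tested. Genotypes were compared within a chamber, chambers within a genotype, and the change in the genotype difference over all libraries. Calls needed an adjusted P value below 0.05 together with 1.5-fold in either direction (the former alone for the change between chambers). DESeq2 1.42.0, other normalizations, filters and limits, a mouse block and leaving out each mouse were alternatives. Chambers of a number came from the same mouse, with correlations of deviations from 0.0299 to 0.128 in 6 pairs. In 12 pairs of different mice of the same genotype, they ran from −0.132 to 0.0548, so the ranges overlapped. Methods were checked on simulated data. Members and gene lists (9 of pathways, 11 of cell type markers) were chosen with earlier results of these data known. Named genes were the members, pathway list genes called between genotypes, up to 3 per list with the smallest P value between chambers of controls, the 3 most correlated genes, and the most abundant marker of a list. Others (such as Igf2r, Taf15, Dazap1, Dlk1, Ehbp1l1, Postn and genes called by DESeq2 alone) were named after their values were seen.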

Additional observations from a re-analysis of the deposited data

Results flagged for a closer look

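None of the 7 RNAs had a genotype difference that differed between chambers by the test over 12 libraries, and 5 genes of the lists set beside them did by edgeR. Sgce, an imprinted gene, had a log2 genotype difference of 0.65 in atria and 0.13 in ventricles, and the ventricular minus atrial difference was −0.52 (SE 0.0815, adjusted P value = 0.0087, edgeR). With 1 mouse left out at a time, its adjusted P value was between 0.033 and 0.058, and the call was lost without V327, V334 or V120. Snhg18, a snoRNA host like Gas5, had 0.93 in atria and 0.22 in ventricles, with a difference of −0.71 (SE 0.14, adjusted P value = 0.029). Its adjusted P value was between 0.054 and 0.18 with 1 mouse left out, so the call was lost each time. Among cell type markers, Bmp10 had a ventricular minus atrial difference of −4.10 (adjusted P value = 0.0021), Nppa 1.72 (adjusted P value = 0.049) and Tagln −1.84 (adjusted P value = 0.045). The call of Nppa was lost under 5 of the 13 alternatives run for it, 4 of them with a mouse left out (V327, V333, V120, V123). With a mouse left out, the call of Tagln was lost in 4 cases (V333, V334, V119, V123), and that of Bmp10 held (adjusted P value at most 0.019). DESeq2 called all 5 genes above and also Ndn, Slc38a4, Taf15, Ltbp3 and Postn. The groups of 3 mice were too small for a check of single outlying libraries.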

How the results depend on the processing

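Between genotypes in atria, 1 RNA (H19) was called, and 2 were called with no filter on low counts, by DESeq2 and with all 12 libraries in 1 fit (H19 and Meg3) and with no fold limit (H19 and Neat1). Leaving out a mouse gave 1 to 2. At a log2 fold change of at least 1.5 the calls were 0 in atria, 2 of 5 between chambers in controls and 1 of 3 in CUG960 +dox mice. The ventricular genotype comparison and the change between chambers gave 0 RNAs under all alternatives run. With the mouse as a replicate block, 5 and 3 RNAs were called between chambers and 0 for the change between chambers, the same RNAs, so the block changed no call among them. Log2 differences that turned sign did so with a mouse left out. In ventricles, Neat1 ranged from −0.21 to 0.035 (positive without V327, 0.035, and without V119, 0.035), Rian from −0.081 to 0.31 (−0.057 without V333) and Gas5 from −0.058 to 0.059 (0.0022 without V120). Mirg between chambers of CUG960 +dox mice ranged from −0.30 to 0.76. The cause was not tested. Of all genes, 969 were called in atria (2573 with no fold limit, 216 at the stricter one), 804 in ventricles (1680, 199), 6098 between control chambers (9726, 2233), 5900 between CUG960 chambers (9517, 2200) and 253 for the change between chambers (660 by DESeq2, 74 to 131 with a mouse left out). Mirg rests on 5 to 35 counts per library, and each group has 3 mice.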
